A study of Mus musculus with 23 samples.

Results

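The genes described here are 47 interferon-stimulated genes of the mouse, which were taken as a list of gene symbols and matched to the Ensembl identifiers of the count table through the GENCODE M21 annotation. Each symbol matched 1 of the 47729 gene entries, and each of the 47 was among the 16260 entries that passed the filter on low counts and were tested. RNA was sequenced from macrophages and monocytes during the foreign body response, the reaction of a tissue to an implanted material. The mice were wildtype C57BL/6J, and the implant was a PEG (polyethylene glycol) hydrogel placed under the skin. Implanted mice were sampled on day 2, day 14 or day 28, and Liberase TM digestion of the tissue and hydrogel, lasting 30 min, released the cells. Controls had no implant. Both cell types were labelled as coming from subcutaneous tissue, and by the design note they were Cx3cr1+ cells, with high Ly6C for monocytes and low Ly6C for macrophages. There were 8 groups of 3 libraries each, except the macrophage controls with 2, which makes 23 libraries. The design note calls the libraries of a group biological replicates. The sources used here give neither the age of the mice nor whether animals were pooled.

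Interferons are secreted proteins that warn cells of infection or damage. Interferon beta and the interferon alpha family (type I) bind a receptor made of Ifnar1 and Ifnar2, whose kinases Jak1 and Tyk2 activate Stat2. With Irf9 it forms part of a complex that binds the interferon-stimulated response element (ISRE) in promoters. Interferon gamma (type II) binds Ifngr1 and Ifngr2 and acts on promoters through the gamma-activated site (GAS). The genes switched on in this way code for antiviral enzymes, nucleic acid sensors, chemokines, GTPases that attack vacuoles of microbes, and the machinery that loads peptides on MHC class I. Monocytes and macrophages both respond to interferons and can make interferon beta.

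Promoters were examined in the RefSeq table of the build GRCm38.p6, which gives 250 bases before and 50 after each annotated start, and 37 of the 47 genes had an entry. The ISRE core was searched as GAAANNGAAA and on the other strand as TTTCNNTTTC, and the GAS core as TTCNNNGAA, which reads the same on both strands. Matches of the 2 motifs may overlap. The ISRE core was present in 22 of the 37 genes (59.5%), against 3.99% of all 27025 genes in the table. The GAS core was present in 10 of 37 (27%), against 9.55% of all genes. Of the 37, 16 held the ISRE core alone, 4 the GAS core alone, 6 both and 11 neither within this window. A match of letters describes the sequence and does not show that a factor bound there. The 250 bases before the start are shown for 4 genes with the ISRE core that rose or fell most clearly below, for Bst2 and for Irf1. Bst2 holds 2 overlapping ISRE cores, which are printed in capitals, and also the GAS core, which is not marked as such. Irf1 holds the GAS core without the ISRE core. The sequences run 5′ to 3′ on the strand of the gene, with the motif in capitals. Isg15 lies at chr4:156200819-156201068 on the minus strand, Rsad2 at chr12:26456453-26456702 on the minus strand and Cxcl10 at chr5:92348890-92349139 on the minus strand. Stat2 lies at chr10:128270248-128270497 on the plus strand, Bst2 at chr8:71537473-71537722 on the minus strand and Irf1 at chr11:53769764-53770013 on the plus strand.
Isg15: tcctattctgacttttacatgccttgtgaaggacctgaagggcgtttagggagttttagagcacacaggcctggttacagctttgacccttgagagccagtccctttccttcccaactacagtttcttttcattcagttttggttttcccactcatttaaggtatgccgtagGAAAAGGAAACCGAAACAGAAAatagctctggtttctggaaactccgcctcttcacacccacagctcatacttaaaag
Rsad2: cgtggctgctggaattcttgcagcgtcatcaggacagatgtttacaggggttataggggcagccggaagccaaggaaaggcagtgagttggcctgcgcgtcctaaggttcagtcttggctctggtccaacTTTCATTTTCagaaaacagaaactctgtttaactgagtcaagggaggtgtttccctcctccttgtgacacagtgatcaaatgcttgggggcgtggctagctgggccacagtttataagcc
Cxcl10: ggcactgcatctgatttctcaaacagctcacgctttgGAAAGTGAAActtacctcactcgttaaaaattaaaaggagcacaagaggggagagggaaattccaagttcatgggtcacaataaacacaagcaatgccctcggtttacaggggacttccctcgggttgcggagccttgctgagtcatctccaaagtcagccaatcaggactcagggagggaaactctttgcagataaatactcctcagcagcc
Stat2: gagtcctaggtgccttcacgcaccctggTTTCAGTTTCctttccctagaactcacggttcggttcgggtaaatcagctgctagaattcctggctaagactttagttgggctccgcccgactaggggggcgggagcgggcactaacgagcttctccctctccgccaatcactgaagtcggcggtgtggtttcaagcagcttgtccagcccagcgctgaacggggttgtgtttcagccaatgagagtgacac
Bst2: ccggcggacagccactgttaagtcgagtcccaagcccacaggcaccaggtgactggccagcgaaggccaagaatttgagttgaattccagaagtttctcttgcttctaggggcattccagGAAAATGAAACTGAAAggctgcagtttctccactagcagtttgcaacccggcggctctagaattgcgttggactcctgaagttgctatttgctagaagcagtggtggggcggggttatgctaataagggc
Irf1: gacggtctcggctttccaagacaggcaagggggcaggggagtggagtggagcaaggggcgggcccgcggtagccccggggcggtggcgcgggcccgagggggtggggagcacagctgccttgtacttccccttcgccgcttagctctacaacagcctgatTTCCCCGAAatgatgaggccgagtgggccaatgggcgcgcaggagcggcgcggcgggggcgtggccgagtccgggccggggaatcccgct
In Isg15 the 3 overlapping cores began 78, 72 and 66 bases before the start. In Rsad2 the core began 120 bases before it, in Cxcl10 213, in Stat2 222, and in Bst2 130 and 124. The GAS core of Irf1 began 90 bases before the start.

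The 23 libraries held 9303153 to 32994092 counts each (median 24722229). Levels are given as CPM, the count scaled to a fixed library size after each library total was multiplied by its TMM factor, and values of single libraries are listed in the order A, B, C (A and B for the macrophage controls). Rank correlations of libraries were 0.916 to 0.969 within groups and 0.824 to 0.954 between groups. The macrophage markers (Csf1r, Cd68, Adgre1, Mrc1, C1qa, C1qb, Mertk and Fcgr1) summed to 8840 to 16300 CPM in the macrophage libraries and 2980 to 8260 CPM in the monocyte libraries. The monocyte markers, among them Ly6c2 and Ccr2, summed to 1590 to 5840 CPM in macrophages and 5970 to 19100 CPM in monocytes, so the sums went with the labels. Not every single marker did. Csf1r and Ccr2 overlapped between the cell types. The macrophage marker Fcgr1 was higher in monocytes on day 14, and the monocyte marker F13a1 was higher in macrophage controls than in monocyte controls. Some libraries stood apart. The slope of level on exon length, which is above 0 in a library with relatively more counts on long transcripts, was 0.278 and 0.013 in macrophage controls A and B, and 0.281, 0.041 and 0.329 in the monocyte controls. It was -0.206, -0.147 and -0.233 in macrophages on day 2 and -0.249 in macrophage library C of day 14. The share of mitochondrial counts was highest, 4.35%, in macrophage library B of day 2. Counts are therefore also given without macrophage library B of day 2, macrophage library C of day 14 and monocyte control B. The first had the highest mitochondrial share. The others had the slopes farthest from the mean of their group, by -0.161 and -0.176. The controls with the largest slopes stay in, so these counts are no check on the length trend. In bulk RNA, fewer cells of a type and less RNA per cell cannot be told apart.

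Called changes of the interferon-stimulated genes differed by cell type and day. In monocytes from implants of day 14, 21 of the 47 were higher than in monocyte controls and 2 were lower. In macrophages, 12 of the 47 were lower than in macrophage controls on day 2 and 8 on day 28, and none was higher at either time. DESeq2 called 2 of the 47 higher on day 2 and 0 on day 28, and limma voom 1 and 0. Genes were called at a Benjamini-Hochberg adjusted p under 0.05 in edgeR's quasi-likelihood test over all 16260 entries. For 35 of the 47, the highest group mean was that of monocytes on day 14, as it was for 15.8% of all tested genes. Macrophages of day 28 held the lowest mean for 26 of the 47 and macrophages of day 2 for 14, against 8.44% and 14.5% of all tested genes.

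**Figure D1:**
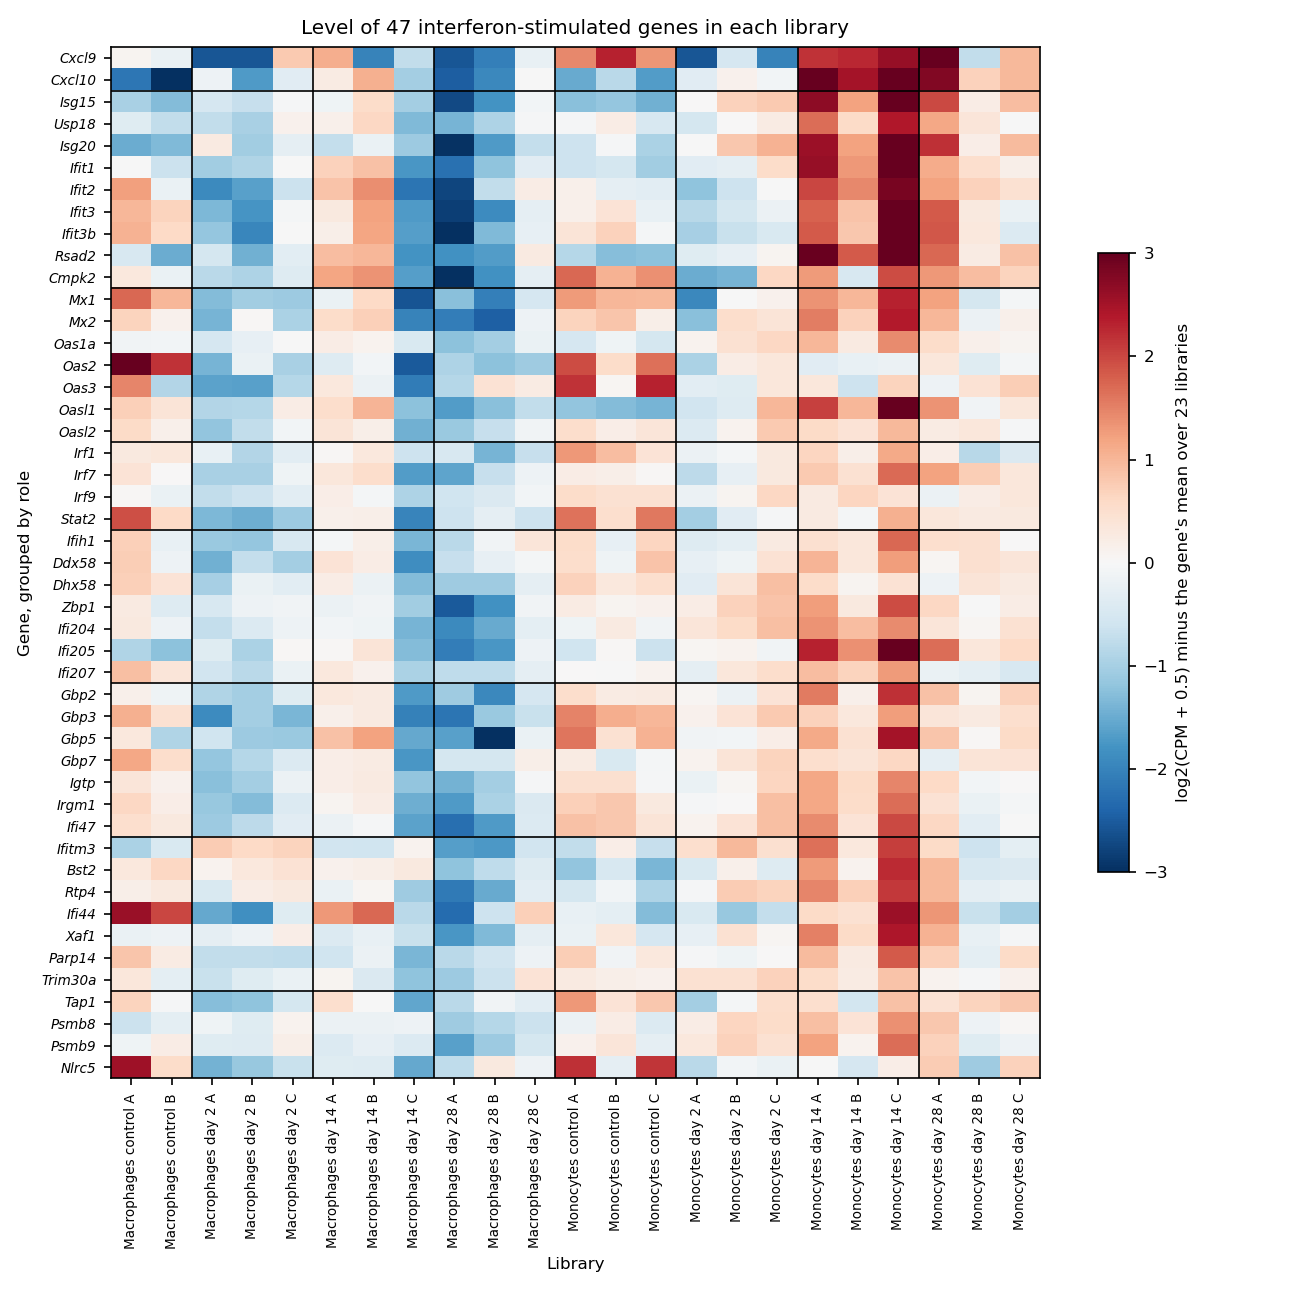
Heat map of 47 genes (rows, grouped by role) in 23 libraries (columns, grouped by cell type and time). Colour is log2(CPM + 0.5) minus the gene's mean over all libraries, red above and blue below the mean, with colours held at 3 and -3. Monocyte libraries A and C of day 14 are red for most genes, and macrophage library C of day 14 and libraries A and B of day 28 are blue.

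The median log2 fold change of the 47 genes in monocytes on day 14 against controls was 0.94, against -0.03 over all tested genes. The background of calls was high, with 19.8% of all tested genes higher and 17.9% lower. Higher calls therefore made up 21 of 47 where the background share was 19.8%, and lower calls 2 of 47. On day 2, 1 of the 47 was higher and 4 were lower in monocytes, with 15.5% of all genes higher and 11.5% lower and a median of -0.20. On day 28, 5 were higher and 2 lower, with 11.7% and 6.52% of all genes and a median of 0.15. In macrophages on day 2 the 12 lower genes stood beside 7.1% of all genes lower and 10.1% higher, and the median was -0.86 against -0.16 over all genes. On day 14, 1 was higher and 3 were lower, with 5.51% and 2.7% of all genes and a median of -0.36. On day 28 the 8 lower genes stood beside 3.99% of all genes lower and 6.57% higher, and the median was -1.08 against -0.03.

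Between implant days, 3 of the 47 were higher in monocytes on day 14 than on day 2 and none lower, with 0.486% and 0.24% of all genes. They were Cxcl10, Rsad2 and Ifi205. DESeq2 called 16 and limma voom 15 genes higher there, and the median log2 fold change was 1.04. For monocytes on day 28 against day 2, edgeR, DESeq2 and limma voom called 0 members, 4 had an unadjusted p under 0.05, and 0.387% of all genes were higher and 0.48% lower. For macrophages on day 14 against day 2, edgeR and DESeq2 called 0 members and limma voom 1, 6 had an unadjusted p under 0.05, and 0.197% of all genes were higher and 0.277% lower. For macrophages on day 28 against day 2 only Ifitm3 was called, lower, with 2.28% of all genes higher and 1.97% lower.

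**Figure D2:**
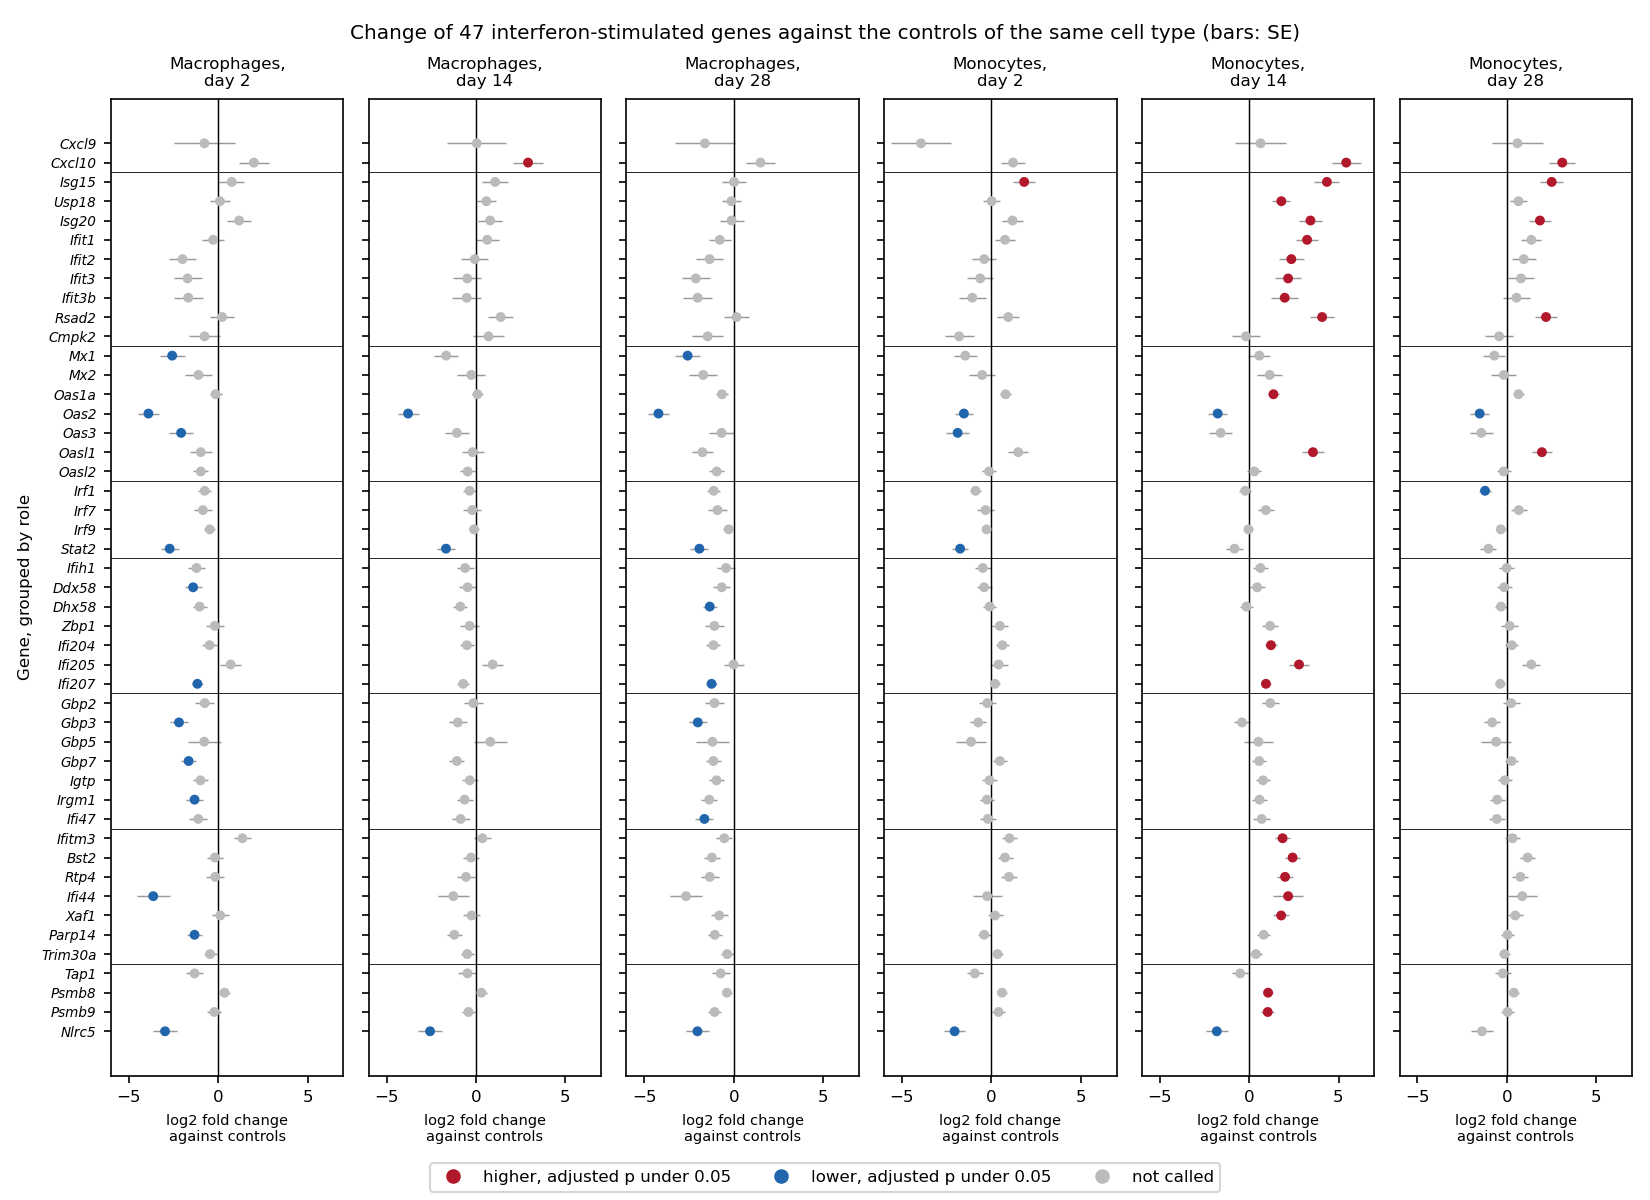
Log2 fold change of each of the 47 genes (rows, grouped by role) against the controls of the same cell type, with macrophages in the left 3 panels and monocytes in the right 3. Bars are standard errors, red points were higher and blue points lower at an adjusted p under 0.05, and grey points were not called. Red points gather in the panel of monocytes on day 14, with 21 of 47 genes, and blue points in macrophages on day 2 and day 28, with 12 and 8.

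These counts depended on the libraries and on whether the length slope was in the fit. The slope was computed from these same counts and moved with the implant. It was -0.173, 0.012 and -0.168 in monocytes on day 14, against the control values given above. A call lost with the length term therefore cannot separate a length effect from a change between groups that the term took up. Without monocyte library C of day 14, 12 of the 47 stayed past the threshold as higher in monocytes on day 14 and 2 as lower, and without monocyte control C 13 and 1. With the length slope of each library as a term in the fit, 6 were higher and 0 lower. Without macrophage control A, the library with the larger slope of the 2 controls, 1 gene was lower in macrophages on day 2, on day 14 and on day 28. The count of lower genes on day 28 was 5 without macrophage control B, 1 without macrophage library A of day 28, 3 without library B and 18 without library C. Without macrophage libraries A and B of day 2 in turn, 6 and 7 were lower on day 2, and with the length term 2, Oas2 and Ifi44. With that term only Oas2 was called in macrophages on day 14 and only Irf1 in monocytes on day 28. On day 28 the length term raised the count of lower genes in macrophages to 14. Without monocyte control B and the other 2 libraries that stood apart, 19 were higher and 4 lower in monocytes on day 14, and 12 lower in macrophages on day 2. On day 28, 3 members were called in monocytes without monocyte control A and without monocyte control C, and 2 without monocyte library A of day 28. On day 2, 1 was called in monocytes without monocyte control A, 2 without monocyte control C, 3 without library A and 2 without library B of day 2, and 0 with the length term.

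Scaling mattered as well. The TMM factors were 1.239 to 1.405 in the controls and 0.7266 to 1.042 in implant libraries. Using library totals alone shifts every log2 fold change by -0.60, -0.55 and -0.47 in macrophages on days 2, 14 and 28 and by -0.45, -0.75 and -0.40 in monocytes. With totals alone, 10 of the 47 were higher and 6 lower in monocytes on day 14, 2 higher and 4 lower on day 28, and 0 higher and 8 lower on day 2. In macrophages 22, 7 and 20 were then lower on days 2, 14 and 28, and none was higher.

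The list holds 2 chemokines, Cxcl9 and Cxcl10, which draw T cells through the receptor Cxcr3. Cxcl10 was at 37.4, 60.6 and 33.3 CPM in the monocyte controls, 84.9, 118 and 101 on day 2, 1590, 611 and 3430 on day 14 and 740, 174 and 211 on day 28. Every monocyte library from an implant lay above every monocyte control. The log2 fold change against controls was 5.43 ± 0.82 (SE) on day 14 (adjusted p = 4.3e-05) and 3.10 ± 0.73 on day 28 (adjusted p = 0.0051), and on day 14 against day 2 it was 4.22 ± 0.77 (adjusted p = 0.011). The latter was lost without monocyte library B or C of day 2 and without library C of day 14, and the day 28 call was lost with the length term (adjusted p = 0.1). The rise on day 14 over controls was called in each of 6 fits that left out 1 library and in the 9 other settings. In macrophages Cxcl10 was at 23.4 and 12.6 CPM in controls, 96.1, 32.6 and 84.9 on day 2, 127, 224 and 52.3 on day 14 and 18.8, 27.6 and 106 on day 28. It was the only member called higher in macrophages, on day 14 (log2 fold change 2.91 ± 0.86, adjusted p = 0.04), and that call was lost in 4 of 5 fits that left out 1 library, those without either control or without library A or B of day 14. Cxcl10 overlaps Art3, a gene on the opposite strand, and reads of the pair cannot be told apart without strand.

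Cxcl9, which macrophages make mainly after interferon gamma, stayed low. It was at 7.45, 14.1 and 6.84 CPM in monocyte controls, 0, 1.56 and 0.239 on day 2, 12.8, 13.7 and 17.6 on day 14 and 36.2, 1.27 and 5.26 on day 28. Macrophage libraries held 0 to 5.73 CPM. No comparison called Cxcl9.

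The next group is the ISG15 system (Isg15, a ubiquitin-like protein, and Usp18, which removes it and restrains the type I receptor), the IFIT proteins that bind foreign RNA (Ifit1, Ifit2, Ifit3 and Ifit3b), the RNase Isg20, the radical enzyme Rsad2 (viperin) and its neighbour Cmpk2, a mitochondrial nucleotide kinase. Of these 9, 8 rose in monocytes on day 14, with a median log2 fold change of 2.36, and Cmpk2 was the exception with -0.18. Cmpk2 stood at 162, 101 and 127 CPM in monocyte controls and 118, 34.5 and 191 on day 14. Isg15 was at 64.7, 68.8 and 56.5 CPM in monocyte controls, 155, 250 and 268 on day 2, 992, 356 and 2520 on day 14 and 612, 180 and 294 on day 28. The controls and the implant groups did not overlap, and library C of day 14 held the most. Isg15 was called higher at every time, by 1.83 ± 0.63 on day 2 (adjusted p = 0.036), 4.35 ± 0.70 on day 14 (adjusted p = 8.5e-05) and 2.51 ± 0.64 on day 28 (adjusted p = 0.009). On day 2 that call was lost in 5 of 6 fits that left out 1 library, all but the fit without monocyte library A of day 2. On day 28 it was lost without monocyte library A (adjusted p = 0.054) and with the length term (adjusted p = 0.13). In macrophages Isg15 was at 78.2 and 62.6 CPM in controls, 108, 95.3 and 151 on day 2, 142, 225 and 75.8 on day 14 and 23.4, 44.5 and 147 on day 28, and it was not called.

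Rsad2 followed the same course in monocytes, with 87.6, 66 and 68.4 CPM in controls, 124, 134 and 169 on day 2, 1250, 573 and 1930 on day 14 and 527, 191 and 295 on day 28. All implant libraries again lay above all controls. The change was 4.08 ± 0.69 on day 14 (adjusted p = 1.4e-04) and 2.19 ± 0.64 on day 28 (adjusted p = 0.02), where it was lost without monocyte library A of day 28 and without monocyte control B or C. On day 14 against day 2 it was 3.14 ± 0.66 (adjusted p = 0.031), lost in 5 of 6 fits without 1 library, all but the fit without monocyte library B of day 14. Macrophages held 115 and 56.7 CPM of Rsad2 in controls, 111, 58.3 and 128 on day 2, 305, 321 and 45.8 on day 14 and 45.2, 49.6 and 193 on day 28. Within day 14 and day 28 the macrophage libraries differed more than the group means did.

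Ifit1 was at 60.9, 64.9 and 44.8 CPM in monocyte controls and at 573, 229 and 812 on day 14, a change of 3.24 ± 0.60 (adjusted p = 3.5e-04). On day 2 and day 28 monocytes held 73.8 to 138 and 105 to 203 CPM, and neither time was called. Isg20 was at 44.5, 67.3 and 35.7 CPM in monocyte controls and 409, 161 and 1020 on day 14 (3.43 ± 0.65, adjusted p = 4.3e-04). With the length term the adjusted p of Isg20 was 0.07. On day 28, at 318, 78.9 and 134 CPM, Isg20 was called by 1.85 ± 0.61 (adjusted p = 0.041), and this was lost without monocyte control A or C and without library A or C of day 28, with a highest adjusted p of 0.24. Ifit3 was at 170, 204 and 132 CPM in monocyte controls, 86, 106 and 136 on day 2, 527, 279 and 1490 on day 14 and 553, 188 and 134 on day 28. It rose on day 14 by 2.18 ± 0.74 (adjusted p = 0.025). Ifit2, at 114, 85.1 and 81.9 CPM in monocyte controls, was at 413, 281 and 744 on day 14 (2.36 ± 0.71, adjusted p = 0.013), and Usp18 went from 133, 160 and 97.6 CPM to 433, 202 and 719 (1.80 ± 0.50, adjusted p = 0.0081). For both, all day 14 libraries lay above the controls. Reads of Ifit3 and its near copy Ifit3b may have been split or dropped in counting, so both are uncertain. In macrophages none of the 9 was called against controls on any day. Ifit3 was at 309 and 244 CPM in macrophage controls, 60.4, 44.9 and 147 on day 2, 189, 354 and 47.1 on day 14 and 21.2, 41 and 128 on day 28.

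**Figure D3:**
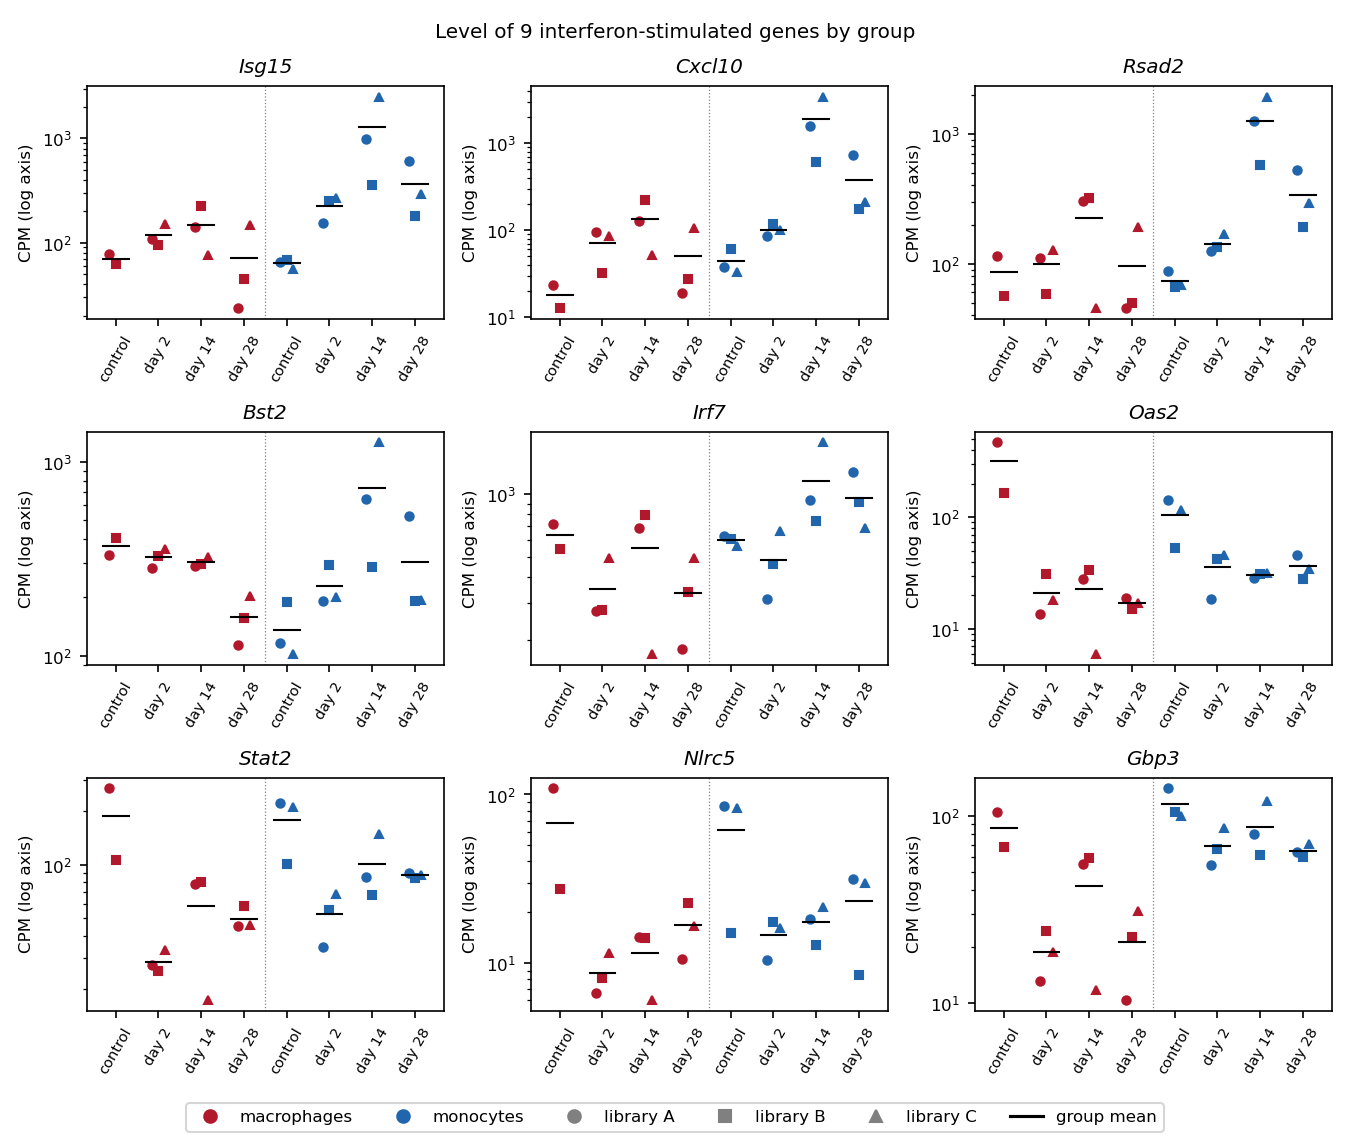
Levels of 9 of the genes in every library, in CPM on a log axis, for macrophages (red, left of the dotted line) and monocytes (blue). Symbols mark libraries A, B and C, and the black line is the group mean. Isg15, Cxcl10, Rsad2 and Bst2 peak in monocytes on day 14, and Oas2, Stat2 and Nlrc5 are highest in controls of each cell type.

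The Mx GTPases block viral nucleocapsids, and the OAS proteins make the short oligoadenylates that activate RNase L, with Oasl1 and Oasl2 as relatives. Laboratory mice such as C57BL/6 carry a defective Mx1. This group split. Oas1a and Oasl1 rose and Oas2 fell in monocytes on day 14, and Mx1, Mx2, Oas3 and Oasl2 were not called. Oasl1 was at 37.3, 34.2 and 32 CPM in monocyte controls, 56.7, 64.8 and 170 on day 2, 353, 169 and 704 on day 14 and 217, 79 and 108 on day 28. Its change was 3.57 ± 0.61 on day 14 (adjusted p = 1.5e-04) and 1.96 ± 0.57 on day 28 (adjusted p = 0.02), the latter lost without monocyte library A of day 28 and without monocyte control A, B or C. In macrophages Oasl1 was at 141 and 111 CPM in controls, 45.8, 46.8 and 99.5 on day 2, 122, 174 and 36 on day 14 and 26.2, 35.2 and 51 on day 28, with no call.

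Oas2 was the member that fell furthest. It was at 467 and 166 CPM in macrophage controls, 13.6, 31.4 and 18.2 on day 2, 27.9, 34.1 and 5.96 on day 14 and 19, 15.2 and 17 on day 28. Every implant library lay below both controls. The log2 fold changes were -3.91 ± 0.59 (adjusted p = 1.3e-04), -3.80 ± 0.59 (adjusted p = 2.2e-04) and -4.21 ± 0.60 (adjusted p = 8.2e-05), and each was called in every fit that left out 1 library and in every other setting. Monocytes showed a smaller fall, from 143, 53.4 and 116 CPM in controls to 18.6, 42.7 and 46.2 on day 2, 28.7, 31.3 and 32 on day 14 and 46.2, 28 and 34.8 on day 28. Every monocyte implant library lay below the controls. The monocyte changes were -1.54 ± 0.52 (adjusted p = 0.032), -1.76 ± 0.52 (adjusted p = 0.012) and -1.52 ± 0.52 (adjusted p = 0.045), and on day 2 and day 28 they were lost in 4 and 5 of 6 fits that left out 1 library and with the length term, with adjusted p up to 0.69. Those fits on day 2 lacked monocyte control A or C or library A or B of day 2, and those on day 28 lacked monocyte control A or C or any library of day 28. The monocyte call of Oas2 on day 14 was also lost with the length term, under which no member was lower. Oas3 stood at 20 to 103 CPM in macrophage controls and fell on day 2 by -2.08 ± 0.69 (adjusted p = 0.042), and in monocytes on day 2 by -1.89 ± 0.64 (adjusted p = 0.033). Its libraries overlapped with the controls in both cases, and the monocyte call was lost without monocyte control A or C, without library A or B of day 2 and with the length term (adjusted p = 0.96). Oas1a rose in monocytes on day 14, from 198, 255 and 194 CPM to 563, 339 and 755 (1.36 ± 0.30, adjusted p = 0.0015).

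Mx1 was at 125 and 74.8 CPM in macrophage controls, 14.9, 17.9 and 17.4 on day 2, 32.2, 56.3 and 5.78 on day 14 and 15.4, 8.68 and 26.1 on day 28. All 9 implant libraries lay below both controls. It was called lower on day 2 and on day 28, by -2.58 on each day with SE 0.70 and 0.69 (adjusted p = 0.015 and 0.02). The day 2 call was lost without macrophage control A or library A of day 2 and with the length term (adjusted p = 0.086). The day 28 call was lost without either control or without library A or B of day 28. Monocytes held 91.6, 74.7 and 74.1 CPM of Mx1 in controls, 9.44, 37.1 and 40.8 on day 2, 95.8, 74.5 and 186 on day 14 and 86.3, 25.8 and 36 on day 28, with no call. Mx2, annotated as a polymorphic pseudogene, stood at 1.31 to 50.7 CPM and Oasl2 at 91.8 to 490 CPM over the 23 libraries, and neither was called against controls.

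Of the 4 transcription factors, Stat2 and Irf9 are parts of the complex that binds the ISRE, Irf7 amplifies interferon production and Irf1 serves mainly the interferon gamma response. None was called higher at any time. Stat2 was at 269 and 107 CPM in macrophage controls, 27.5, 25.3 and 33.1 on day 2, 78.3, 80.4 and 17.4 on day 14 and 45.5, 58.3 and 45.7 on day 28. Each implant library lay below both controls, and the changes were -2.72 ± 0.51 (adjusted p = 9.7e-04), -1.68 ± 0.50 (adjusted p = 0.04) and -1.92 ± 0.50 (adjusted p = 0.016). Without macrophage control A none of the 3 was called (highest adjusted p 0.59, on day 14). The day 2 call was also lost with the length term (adjusted p = 0.12). The day 14 call was also lost without library C of day 14, with the length term, the replicate block, only the groups compared and without the 3 libraries that stood apart, and the day 28 call without library A of day 28. Monocytes held 221, 101 and 212 CPM of Stat2 in controls, 34.5, 56 and 68.3 on day 2, 85.4, 67.6 and 149 on day 14 and 89.9, 84.6 and 87.2 on day 28. The fall of -1.75 ± 0.46 on day 2 was called (adjusted p = 0.0088), though not with the length term (adjusted p = 0.34).

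Irf7 was at 723 and 548 CPM in macrophage controls, 276, 278 and 497 on day 2, 691, 792 and 171 on day 14 and 181, 339 and 492 on day 28. Monocytes held 633, 613 and 564 CPM in controls, 315, 461 and 668 on day 2, 939, 746 and 1770 on day 14 and 1270, 917 and 690 on day 28. All 6 monocyte libraries of days 14 and 28 lay above the controls, but neither time was called. Irf1 was at 342, 265 and 183 CPM in monocyte controls, 122, 133 and 170 on day 2, 216, 157 and 305 on day 14 and 159, 77.7 and 102 on day 28, where it fell by -1.22 ± 0.33 (adjusted p = 0.014). That call was lost without monocyte control A and without library B or C of day 28. In macrophages Irf1 was at 170 and 176 CPM in controls, 75.6 to 118 on day 2, 90.3 to 171 on day 14 and 52.4 to 99.8 on day 28, with no call. Irf9 stood at 72.9 to 217 CPM over the 23 libraries and was not called against controls.

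The nucleic acid sensors are the RNA helicases Ifih1 (MDA5), Ddx58 (RIG-I) and Dhx58 (LGP2), the Z-form nucleic acid sensor Zbp1 and the PYHIN proteins Ifi204, Ifi205 and Ifi207. The 3 PYHIN genes rose in monocytes on day 14 and the helicases and Zbp1 were not called. Zbp1 was at 234, 208 and 216 CPM in monocyte controls and 471, 242 and 764 on day 14, and Ifih1 stood at 15.8 to 139 CPM over the 23 libraries. Ifi205 was at 149, 231 and 144 CPM in monocyte controls, 236, 243 and 211 on day 2, 1120, 585 and 1930 on day 14 and 725, 287 and 343 on day 28. The day 14 change was 2.79 ± 0.54 (adjusted p = 4.5e-04), and on day 14 against day 2 it was 2.39 ± 0.53 (adjusted p = 0.037), lost in all fits that left out 1 library except that without monocyte library B of day 14. Ifi204 was at 299, 393 and 301 CPM in monocyte controls, 416, 487 and 607 on day 2, 831, 616 and 868 on day 14 and 418, 340 and 449 on day 28, with a change of 1.22 ± 0.36 on day 14 (adjusted p = 0.012). Reads of this cluster of related genes may be shared between them. In macrophages Ifi204 was at 396 and 291 CPM in controls, 197, 245 and 291 on day 2, 305, 297 and 123 on day 14 and 85.6, 113 and 267 on day 28, with no call. Ifi207 fell in macrophages from 485 and 332 CPM to 174, 147 and 226 on day 2 (-1.17 ± 0.32, adjusted p = 0.016) and to 153, 153 and 214 on day 28 (-1.24 ± 0.32, adjusted p = 0.015). Without macrophage control A neither was called, nor was day 2 without its library B or day 28 without its library A or B. The day 2 call of Ifi207 was also lost with the length term (adjusted p = 0.16). Ddx58 was lower in macrophages on day 2 (-1.41 ± 0.47, adjusted p = 0.043) and Dhx58 on day 28 (-1.34 ± 0.39, adjusted p = 0.03), and Dhx58 was lost without either control or without library A or B of day 28.

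The guanylate-binding proteins (Gbp2, Gbp3, Gbp5 and Gbp7) and immunity-related GTPases (Igtp, Irgm1 and Ifi47) coat and break vacuoles of intracellular microbes, and they respond most to interferon gamma. None of these 7 was called in monocytes against controls on any day. In macrophages Gbp3, Gbp7 and Irgm1 fell on day 2, and Gbp3 and Ifi47 on day 28. Gbp3 was at 104 and 68.3 CPM in macrophage controls, 13.1, 24.3 and 18.7 on day 2, 55.3, 59.7 and 11.7 on day 14 and 10.4, 22.6 and 30.9 on day 28. The changes were -2.20 ± 0.50 on day 2 (adjusted p = 0.0048) and -2.01 ± 0.50 on day 28 (adjusted p = 0.011), and both were lost without macrophage control A (adjusted p = 0.071 on day 2), the latter also without library A of day 28. Gbp7 went from 142 and 90.5 CPM in controls to 28.1, 34.8 and 47.2 on day 2 (-1.66 ± 0.42, adjusted p = 0.01). That call was lost without macrophage control A (adjusted p = 0.14). With the length term the day 2 calls of Gbp7 and Gbp3 were lost (adjusted p = 0.33 and 0.11). Ifi47 went from 215 and 187 CPM to 31.2, 46.4 and 115 on day 28 (-1.64 ± 0.50, adjusted p = 0.04), lost without either control or library A or B of day 28. It shares 20388 bases with Olfr56 on the same strand, as Igtp shares 7974 with Irgm2, so the counts of both depend on how shared reads were assigned.

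Irgm1 was at 227 and 169 CPM in macrophage controls, 66.7, 59.5 and 111 on day 2, 156, 172 and 53 on day 14 and 44.9, 76.3 and 108 on day 28. The day 2 value lay below both controls in all 3 libraries (-1.33 ± 0.45, adjusted p = 0.047). In monocytes Irgm1 was at 242, 256 and 179 CPM in controls, 144, 149 and 276 on day 2, 330, 215 and 468 on day 14 and 199, 128 and 140 on day 28. Gbp2 was at 87.8, 71.7 and 72.8 CPM in monocyte controls and 180, 67.6 and 280 on day 14, so the day 14 libraries lay on both sides of the controls. Macrophages held 67.1 and 55.6 CPM of Gbp2 in controls and 15.6 to 75.1 CPM in implant libraries. Over the 23 libraries Gbp5 stood at 0.0706 to 48.5 CPM and Igtp at 27.9 to 208 CPM, and both were highest in monocyte library C of day 14.

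The membrane and other effectors include Ifitm3, which blocks fusion of viruses with endosomes, Bst2 (tetherin), which holds budding virions, the receptor chaperone Rtp4, Ifi44, the XIAP-associated factor Xaf1, the ADP-ribosyltransferase Parp14 and the ubiquitin ligase Trim30a. The first 5 rose in monocytes on day 14, and Parp14 and Trim30a were not called. Bst2 was at 116, 189 and 102 CPM in monocyte controls, 193, 293 and 201 on day 2, 646, 287 and 1260 on day 14 and 523, 191 and 195 on day 28. Its day 14 change was 2.43 ± 0.44 (adjusted p = 2.9e-04), with an adjusted p of 0.061 under the length term. In macrophages Bst2 was at 330 and 407 CPM in controls, 285 to 357 on day 2, 289 to 325 on day 14 and 114 to 204 on day 28, with no call. Per kilobase of exon, Ifitm3 was the most abundant member in each of the 8 groups, from 2350 CPM per kb in macrophages on day 28 to 15700 CPM per kb in monocytes on day 14. In CPM it was at 2200, 4260 and 2290 in monocyte controls, 5220, 7210 and 5130 on day 2, 11700, 4620 and 15600 on day 14 and 5510, 2390 and 3000 on day 28. It rose on day 14 by 1.87 ± 0.42 (adjusted p = 0.0018). Rtp4 rose on day 14 from 193, 263 and 145 CPM to 763, 457 and 1200 (2.01 ± 0.46, adjusted p = 0.0021) and Xaf1 from 88.7, 128 and 71.8 CPM to 292, 153 and 552 (1.79 ± 0.43, adjusted p = 0.0031). Trim30a stood at 84 to 354 CPM over the 23 libraries.

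Macrophages held 1900 and 2710 CPM of Ifitm3 in controls, 6220, 5580 and 5830 on day 2, 2480, 2440 and 3980 on day 14 and 1180, 1110 and 2480 on day 28. The fall of -1.88 ± 0.42 from day 2 to day 28 was called (adjusted p = 0.017), and was lost without macrophage library A of day 2, without library A or B of day 28 and with the length term (adjusted p = 0.37). The neutrophil markers, whose cells also express Ifitm3, summed to 3160 to 6740 CPM in macrophages on day 2 and 121 to 343 CPM on day 28. Most of the day 2 sum was S100a8 (3160, 1460 and 2300 CPM) and S100a9 (2900, 1250 and 1700 CPM). Ly6g was at 20.5, 9.3 and 9.9 CPM on day 2 and 0 on day 28, and Camp, Ltf and Mpo at 0 to 3.38 CPM on day 2. The part of these markers in this result was not tested. Ifi44 was at 50.2 and 32.9 CPM in macrophage controls, 2.37, 1.85 and 6.04 on day 2, 20.2, 27.3 and 4.31 on day 14 and 1.18, 4.98 and 13.3 on day 28. All implant libraries lay below both controls, and day 2 was called (-3.64 ± 0.93, adjusted p = 0.011), though not without macrophage control A or library A of day 2. In monocytes Ifi44 stood at 2.89 to 6.69 CPM in controls and 12, 10.9 and 49 on day 14 (2.18 ± 0.83, adjusted p = 0.044). Parp14 fell in macrophages on day 2, from 133 and 87.6 CPM to 44.4, 44.1 and 43.5 (-1.33 ± 0.40, adjusted p = 0.027).

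The 4 genes of antigen processing are the immunoproteasome subunits Psmb8 and Psmb9, the peptide transporter Tap1 and the MHC class I transactivator Nlrc5. Their directions differed. In monocytes on day 14 Psmb8 and Psmb9 rose, by 1.06 ± 0.27 (adjusted p = 0.0048) and 1.04 ± 0.35 (adjusted p = 0.025), Nlrc5 fell and Tap1 was not called. Psmb8 was at 334, 442 and 285 CPM in monocyte controls, 443, 595 and 554 on day 2, 716, 502 and 991 on day 14 and 662, 341 and 390 on day 28. In macrophages it was at 242 and 309 CPM in controls, 348, 297 and 411 on day 2, 336, 338 and 340 on day 14 and 182, 209 and 244 on day 28. Libraries A and B of day 28 lay below both controls and C between them, and no day was called. Tap1 stood at 41.5 to 303 CPM over the 23 libraries and was not called against controls. It overlaps Psmb9 on the opposite strand by 212 bases.

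Nlrc5 was at 109 and 27.3 CPM in macrophage controls, 6.58, 8.15 and 11.4 on day 2, 14.3, 14.1 and 6.01 on day 14 and 10.6, 22.8 and 16.6 on day 28. It was called lower at each time, by -2.98 ± 0.66 (adjusted p = 0.0041), -2.57 ± 0.65 (adjusted p = 0.016) and -2.03 ± 0.64 (adjusted p = 0.047). None of the 3 was called without macrophage control A, which held most of the level, and the highest adjusted p was 0.19, 0.5 and 0.69 over the fits without 1 library. The day 14 call was also lost without library C of day 14, and the day 28 call without any of the libraries of day 28. With the length term all 3 calls were lost (adjusted p = 0.3 on day 2). The day 14 and day 28 calls were lost with only the groups compared, and that of day 28 with limma voom and the replicate block. In monocytes Nlrc5 was at 85.7, 15.1 and 82.7 CPM in controls, 10.4, 17.4 and 16.1 on day 2, 18.2, 12.8 and 21.4 on day 14 and 31.6, 8.49 and 30 on day 28. The groups overlapped through monocyte control B, and day 2 (-2.06 ± 0.60, adjusted p = 0.016) and day 14 (-1.81 ± 0.60, adjusted p = 0.022) were called. The day 2 call was lost without monocyte control A or C, without library A of day 2 and with the length term (adjusted p = 0.51). With the length term no member was lower in monocytes on day 14, so that call was lost too.

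Called changes were unevenly spread over exon length. The median exon length of the 47 genes was 3660 bases. In macrophages on day 2, 10 of the 12 genes that fell were longer than this, and the median log2 fold change was -1.33 for the 23 longer genes and -0.39 for the 24 others. All tested protein-coding genes showed the same sign of difference, with -0.44 above that length and 0.17 at or below it. In monocytes on day 14, 16 of the 21 genes that rose were in the shorter group. There the medians were 0.52 for the longer and 1.29 for the shorter members, and -0.44 and 0.27 over all protein-coding genes, so the member median lay above that of all genes in both length classes. On day 28 the macrophage medians were -1.06 and -1.11 for members and -0.05 and 0.00 for all genes, and 4 of the 8 genes that fell were in each class. The part of the length trend in these results was not tested beyond the fit with the length term given above.

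**Figure D4:**
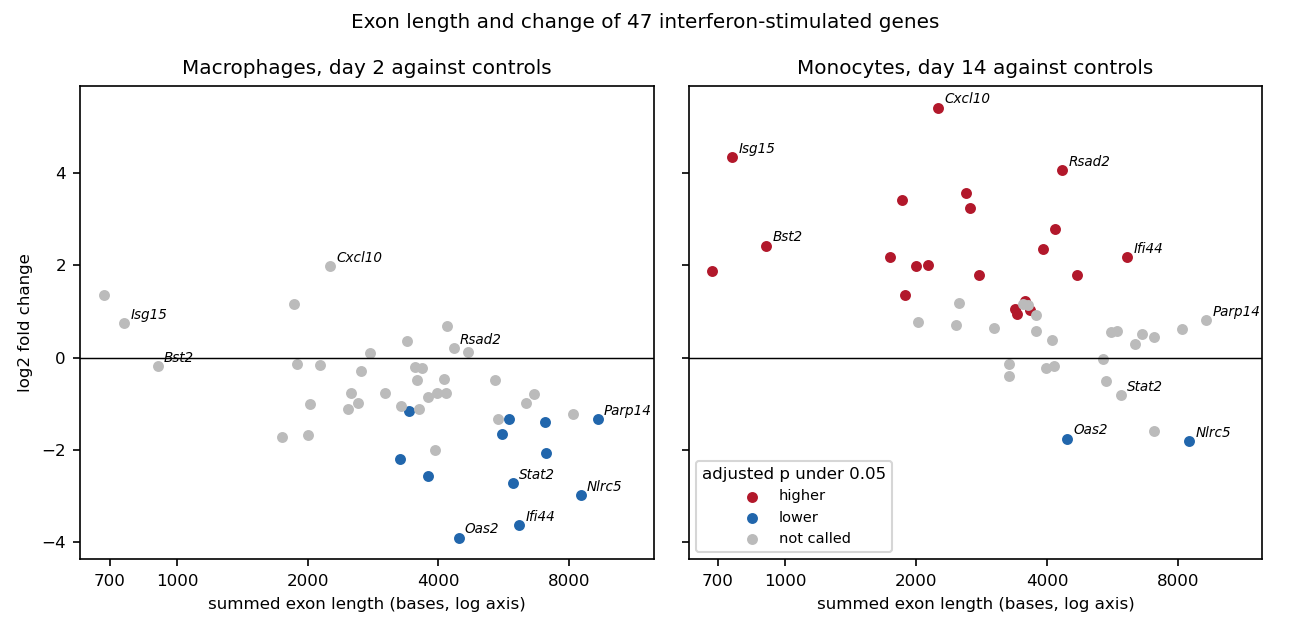
Summed exon length in bases (log axis) against log2 fold change for the 47 genes, in macrophages on day 2 (left) and monocytes on day 14 (right), each against controls. Points called higher are red, lower blue and others grey. In macrophages 10 of the 12 blue points lie among the 23 genes longer than 3660 bases, and in monocytes 16 of the 21 red points lie among the 24 others. Oas2 has the lowest value in macrophages and Nlrc5 in monocytes.

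Macrophages were set against monocytes at each time. In controls 3 members were higher in macrophages and none lower, with 7.61% of all genes higher. They were Ifi44 (41.5 against 5.3 CPM, 2.97 ± 0.90, adjusted p = 0.033), Bst2 (369 against 136 CPM, 1.44 ± 0.46, adjusted p = 0.045) and Oasl1 (126 against 34.5 CPM, 1.87 ± 0.61, adjusted p = 0.048). Fits without 1 library called at most 1 of them. Bst2 was kept only in the fit without monocyte control B. It was lost without the 3 libraries that stood apart, of which monocyte control B is 1, and with the replicate block. On day 2 edgeR called only Gbp3, DESeq2 2 members and limma voom 13. Gbp3 was lower in macrophages (18.7 against 68.8 CPM, -1.88 ± 0.46, adjusted p = 0.027), with 1.78% of all genes lower in edgeR, and it was lost in 5 of 6 fits without 1 library. Those 5 lacked any macrophage library of day 2 or monocyte library B or C of day 2.

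On day 14, 21 of the 47 were lower in macrophages than in monocytes and none higher, with 4.02% of all genes lower. The fitted value was below 0 for each of the 47, and their median was -1.41 against 0.00 over all genes. The smallest adjusted p belonged to Isg20, at 44.7 CPM in macrophages and 530 in monocytes (-3.57 ± 0.66, adjusted p = 0.0031), and to Cxcl10, at 134 and 1880 CPM (-3.81 ± 0.76, adjusted p = 0.0051). Next came Xaf1 with 75.8 and 332 CPM (-2.13 ± 0.44, adjusted p = 0.0059), Parp14 with 47.8 and 167 CPM (-1.81 ± 0.37, adjusted p = 0.006) and Ifi205 with 207 and 1210 CPM (-2.55 ± 0.53, adjusted p = 0.0063). Isg15 was at 148 and 1290 CPM (-3.12 ± 0.66, adjusted p = 0.0069), Ifi204 at 242 and 772 CPM (-1.67 ± 0.37, adjusted p = 0.0084) and Ifitm3 at 2970 and 10600 CPM (-1.84 ± 0.42, adjusted p = 0.011). Without monocyte library C of day 14, 4 of the 47 were called (Isg20, Cxcl10, Ifi205 and Ifi204). The number was 11 without monocyte library A of day 14, 11 without macrophage library C of day 14, and 10 without the 3 libraries that stood apart.

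On day 28, 5 were lower in macrophages, with 1.03% of all genes lower, and all 47 fitted values were again below 0 (median -1.27). They were Isg20 (23.8 against 177 CPM, -2.89 ± 0.64, adjusted p = 0.021), Psmb8 (212 against 464 CPM, -1.13 ± 0.27, adjusted p = 0.031), Cxcl10 (50.7 against 375 CPM, -2.89 ± 0.73, adjusted p = 0.038), Ifi205 (108 against 452 CPM, -2.06 ± 0.52, adjusted p = 0.038) and Ifi204 (155 against 402 CPM, -1.37 ± 0.36, adjusted p = 0.048). Without macrophage library C of day 28, 24 were called. Without macrophage library A or B of day 28, or without monocyte library A of day 28, 0 were called by edgeR, and without monocyte library C 1 was. The main count at an unadjusted p under 0.05 was 35, and DESeq2 and limma voom called 21 and 19.

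The test of the difference itself, the change from controls in macrophages minus that in monocytes, was negative for 43 of the 47 on day 14, with a median of -1.46. It called 6 genes (Oasl1, Bst2, Ifi207, Rtp4, Parp14 and Isg15), with 4.29% of all genes called in that direction. On day 28 it called 3 (Oasl1, Bst2 and Oas2), with 3.55% of all genes, and on day 2 it called 1 (Gbp7), with 2.42%. For Oasl1 the macrophage change was -0.19 on day 14 and -1.75 on day 28 and the monocyte change 3.57 and 1.96, and the difference, -3.76 ± 0.83 (adjusted p = 0.0082) and -3.72 ± 0.83 (adjusted p = 0.0085), was called in all 11 fits without 1 library on each day. The count on day 14 was 1 without monocyte library C of day 14, 2 without macrophage control A or monocyte control C, 3 without macrophage control B, monocyte control A or macrophage library C of day 14, and 12 without monocyte library B of day 14. On day 28 it was 1 without macrophage library A or B of day 28, monocyte control C or monocyte library A of day 28, and 10 without macrophage library C of day 28. On day 2 Gbp7 was lost in 9 of the 11 fits, all but those without macrophage library C or monocyte library A of day 2.

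Interferons themselves were rare in the counts. Of 19 ligand genes, 11 had 0 counts in every library and 2, Ifnb1 and Ifng, passed the filter. Ifnb1, which codes for interferon beta, had 131, 23 and 616 counts in monocytes on day 14, 123, 0 and 17 on day 28, and 1, 0 and 0 on day 2. The monocyte controls held 0, 10 and 0. Its mean was 13.3 CPM on day 14 and 0.0885 CPM in controls, a log2 fold change of 7.20 ± 2.35 (adjusted p = 0.022). The call was lost without monocyte control A or C, without monocyte library C of day 14 (highest adjusted p 0.083), with the length term and with the replicate block (highest adjusted p 0.57). In macrophages Ifnb1 had 0 and 0 counts in controls, 22, 0 and 0 on day 2, 3, 22 and 8 on day 14 and 0, 0 and 108 on day 28, with no call.

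Ifnb1 and the 47 genes were set side by side within groups. In 4 of the 6 groups with more than 3 counts of Ifnb1, the library with most Ifnb1 was the library that was highest for most members. Monocyte library C of day 14, with 616 counts, was highest in its group for 45 of the 47 and highest of all 23 libraries for 35, and library B, with 23 counts, was lowest in its group for 44. Of all tested genes, 33.5% were highest in their group in that library C and 35.9% lowest in library B. Monocyte library A of day 28, with 123 counts, was highest in its group for 37 members (41.9% of all tested genes). Macrophage library C of day 28, with 108 counts, was highest for 41 (38.1%) and macrophage library B of day 14, with 22, for 31 (26.2%). The exceptions were macrophages of day 2 and the monocyte controls. Macrophage library A of day 2 had the 22 counts and was highest for 6 members (39.9% of all tested genes). Monocyte control B had the 10 counts and was highest for 20 (37.4%). These are descriptions of libraries, and no test was run on them. The spread within groups was larger for members than for all genes in some groups. The median ratio of highest to lowest library was 2.65 for members against 1.59 for all genes at 10 CPM or more in monocytes on day 14, 3.38 against 1.64 in macrophages on day 14 and 2.56 against 1.69 in macrophages on day 28. In monocytes on day 28 it was 1.9 against 1.72. In monocyte controls it was 1.56 against 1.55.

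**Figure D5:**
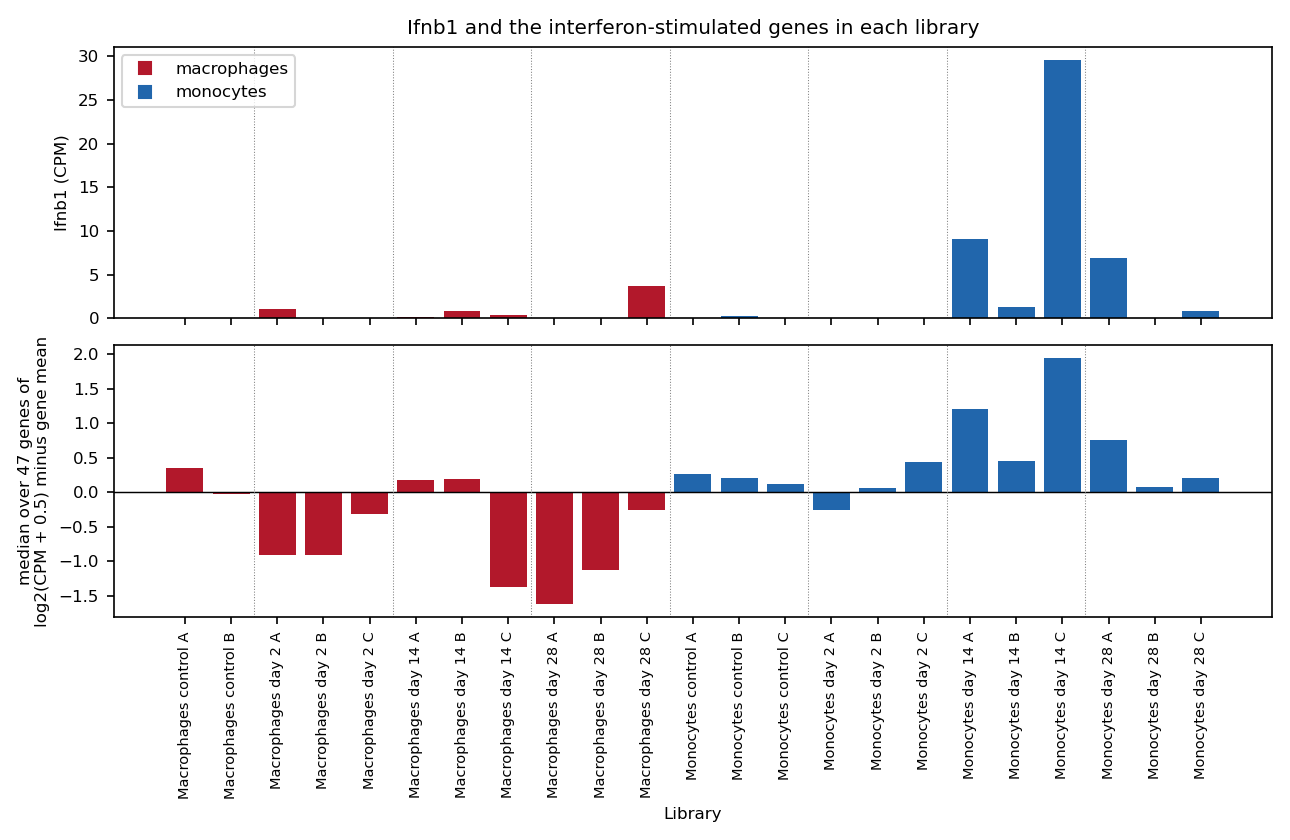
Top, level of Ifnb1 in each of the 23 libraries in CPM. Bottom, median over the 47 genes of log2(CPM + 0.5) minus each gene's mean over libraries. Macrophages are red and monocytes blue. The highest bar in both panels is monocyte library C of day 14 (29.6 CPM and 1.95), and within macrophages of day 28 library C is highest in both (3.72 CPM and -0.26).

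Ifng, which codes for interferon gamma, had 0, 51 and 35 counts in monocytes on day 14, 15, 5 and 20 on day 2 and 10, 0 and 0 on day 28, and 0 in the monocyte controls. Macrophages had 1 count in control B and 7 in library A of day 2. Against the floor of 3 counts over the monocyte control group, the monocyte group mean was at least 62.2-fold higher on day 14 and at least 33.8-fold higher on day 2. These bounds hold for the means of these libraries alone, since library A of day 14 had 0 counts, as the controls had. Without monocyte library B of day 14 the first bound was 35.3-fold, and without library A 92.9-fold. Ifng is made by T and NK cells, whose markers summed to 14.5, 27.3 and 15.9 CPM in monocytes on day 14 and 42.1, 165 and 16 CPM on day 2, against 6.96 to 10.8 CPM in controls, and their part was not tested. Plasmacytoid dendritic cells, the main source of interferon alpha, were sought by 8 markers. They summed to 117 to 153 CPM in monocytes on day 14 and 75.7 to 98.6 CPM in controls. Most of this was Tcf4, at 92.4, 98.5 and 124 CPM on day 14 and 65.2, 87.6 and 67.9 CPM in controls. Their defining gene Siglech was at 1.45, 1.08 and 1.78 CPM in monocytes on day 14, and Klk1 and Pacsin1 were at 0. Siglech was highest in macrophage controls, at 9.21 and 18.5 CPM, against 0 to 0.142 CPM in implant macrophages. The list summed to 144 and 151 CPM in macrophage controls and 73 to 83 CPM on day 2. Most of these sums was again Tcf4, at 130 and 128 CPM in macrophage controls and 64.9, 66.7 and 77 CPM on day 2. Siglech and Tcf4 thus moved with the lower levels of members in macrophages on day 2. Runx2 of the same list went the other way, at 0.783 and 1.35 CPM in macrophage controls and 3.74, 2.18 and 2.17 CPM on day 2. Ccr9, Ly6d and Cox6a2 overlapped between these groups, and Klk1 and Pacsin1 were at 0 to 0.0947 CPM. The part of these markers was not tested. The fibroblast markers (Col1a1 and 5 others) summed to 769, 640 and 356 CPM in monocytes on day 14 and 0.0436 to 0.142 CPM in controls, with Col1a1, Lum and Pdgfra at 0 there. The neutrophil markers summed to 314 to 850 CPM in monocytes on day 14 and 2710 to 4180 CPM in controls. In macrophages on day 2 they summed to 3160 to 6740 CPM against 69.5 to 102 CPM in controls. There the fibroblast markers summed to 1.52 to 32.9 CPM against 168 to 176 CPM. The neutrophil sums held different genes. Ngp was the largest in monocyte controls (1150, 1390 and 780 CPM) and was at 10.7, 2.84 and 18.5 CPM in macrophages on day 2, where S100a8 was the largest. The neutrophil and fibroblast lists thus moved with the changes of the interferon-stimulated genes, and their part was not tested. Monocyte library C of day 14, highest for most members, had the lowest fibroblast and B cell sums of its group. It also had the highest sums of the plasmacytoid dendritic cell markers (153 CPM, against 120 and 117) and of endothelial markers (48.7 CPM, against 30.7 and 25.3). Its macrophage marker sum was the highest as well (8260 CPM, against 7300 and 7310). The part of these lists was not tested.

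Among 6 receptor genes in monocytes on day 14, 1 was higher and 1 lower, close to the 19.8% and 17.9% of all genes. Il10rb, which serves interferon lambda and interleukin 10, was higher (178 against 86.5 CPM, 1.04 ± 0.22, adjusted p = 0.001, and 0.29 with library totals alone) and Ifngr2 lower (58.9 against 252 CPM, -2.10 ± 0.54, adjusted p = 0.0046). Of the genes that act below the receptors, 3 were lower there: the kinase Tyk2 (24.6 against 163 CPM, -2.73 ± 0.55, adjusted p = 6.8e-04), the kinase Jak1 (117 against 274 CPM, -1.23 ± 0.36, adjusted p = 0.012) and the transcription factor Stat3 (120 against 300 CPM, -1.33 ± 0.43, adjusted p = 0.019). With the length term none of these 3 was called (adjusted p = 0.22, 0.42 and 0.98), and Stat3 was lost without monocyte control A or C. In macrophages on day 2 Tyk2 fell as well (15.7 against 83.7 CPM, -2.41 ± 0.58, adjusted p = 0.0069), though not without macrophage control A or with the length term. Ifngr1, the ligand-binding chain of the interferon gamma receptor, was lower in macrophages than in monocytes in controls (426 against 1100 CPM, -1.37 ± 0.25, adjusted p = 6.5e-04) and on day 2 (497 against 1310 CPM, -1.40 ± 0.22, adjusted p = 7.0e-04), in each fit without 1 library and in every other setting.

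Among 11 tested inhibitors of interferon signalling, 2 were higher and 5 lower in monocytes on day 14, where 19.8% of all genes were higher and 17.9% lower, with Ptpn2, a phosphatase of JAK and STAT proteins, among the former (115 against 47.4 CPM, 1.27 ± 0.24, adjusted p = 3.8e-04, and 0.061 with library totals alone). Socs3, an inhibitor of JAK kinases, was higher in monocytes on day 28 (506 against 79.5 CPM, 2.67 ± 0.57, adjusted p = 0.002), in each fit without 1 library. Of 18 genes that induce interferon, such as sensors and adaptors, 2 were higher and 7 lower in monocytes on day 14 (19.8% and 17.9% of all genes), and 0 higher and 4 lower in macrophages on day 2 (10.1% and 7.1% of all genes). Irf5, a factor that drives inflammatory and interferon genes, was at 352 against 774 CPM in monocytes on day 14 (-1.14 ± 0.25, adjusted p = 0.0013, and 0.074 with the length term). In macrophages on day 2 Tlr7, a sensor of RNA in endosomes, was at 29.8 against 78.8 CPM (-1.40 ± 0.35, adjusted p = 0.0084) and Tmem173 (STING), the adaptor of DNA sensing, at 83.1 against 176 CPM (-1.08 ± 0.27, adjusted p = 0.0092). Both were lost without macrophage control A, where none of the 18 was called, and with the length term.

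A further list of 63 interferon-stimulated genes outside the 47, of which 62 were tested, held 18 higher and 4 lower in monocytes on day 14, 4 higher and 23 lower in macrophages on day 2 and 3 higher and 18 lower in macrophages on day 28. The shares over all genes were 19.8% and 17.9%, 10.1% and 7.1%, and 6.57% and 3.99%. Without monocyte library C of day 14 the first was 11 and 5, with the length term 9 and 4, and with library totals alone 9 and 18. Without macrophage control A the others were 2 and 4 on day 2 and 0 and 7 on day 28. Ifitm1 was the most changed in monocytes, at 1360 against 1.78 CPM on day 14 (9.57 ± 0.86, adjusted p = 6.4e-08). Ly6a, an interferon-responsive surface protein that fibroblasts and other cells also express, was at 1090 against 11.1 CPM (6.61 ± 0.84, adjusted p = 6.2e-06). In macrophages Uba7, the activating enzyme for Isg15, was at 22.2 against 186 CPM on day 2 (-3.07 ± 0.48, adjusted p = 1.7e-04) and 38.3 against 186 CPM on day 28 (-2.27 ± 0.47, adjusted p = 0.0028), the latter lost without macrophage control A (adjusted p = 0.12).

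Of 25 further genes of the interferon gamma response and MHC class I, 14 were higher and 1 lower in monocytes on day 14 and 9 higher and 1 lower on day 28, and in macrophages 3 were higher and 3 lower on day 2 and 2 higher and 3 lower on day 28. Over all genes 19.8% were higher and 17.9% lower in monocytes on day 14 and 11.7% and 6.52% on day 28, and in macrophages 10.1% and 7.1% on day 2 and 6.57% and 3.99% on day 28. Cd274 (PD-L1), an inhibitory ligand for T cells, was at 196 against 19.2 CPM in monocytes on day 14 (3.35 ± 0.38, adjusted p = 1.3e-06) and at 154 against 18.4 CPM in macrophages on day 28 (3.07 ± 0.44, adjusted p = 9.8e-05). It therefore rose in macrophages while none of the 47 did on that day. Ciita, the transactivator of MHC class II, fell in macrophages on day 2 from 73.2 to 3.34 CPM (-4.50 ± 0.58, adjusted p = 2.1e-05). Fcgr1, a macrophage marker and receptor for IgG, was at 1300 against 121 CPM in monocytes on day 14 (3.42 ± 0.37, adjusted p = 8.9e-07).

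The ISRE core was found in called and in uncalled genes. Of the 18 genes higher in monocytes on day 14 that had a promoter entry, 11 held the ISRE core, as did 11 of the 19 with an entry that were not called. In macrophages on day 2, 7 of the 8 lower genes with an entry held it, against 15 of 29 not called, and on day 28 3 of 4 against 19 of 33. No test was run on these counts. The motif that is printed in Stat2 and in Isg15 was thus present in a gene that fell in monocytes on day 2 and in a gene that rose at each time.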

How the data were processed

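RNA of 23 samples was sequenced as single reads of 75 bases. The deposited values are raw counts per gene, made by the authors with bcl2fastq, STAR 2.4.1d and featureCounts of Subread 1.5.1 on GRCm38, per the submitters' processing notes. The sources used here do not give the annotation release, the strand setting or how multiply matching reads were counted. Genes with near copies or overlaps are therefore uncertain.

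Entries passing filterByExpr were tested with edgeR 4.0.16 (R 4.3.3) by quasi-likelihood F tests with TMM scaling, in 1 fit of all 8 groups with 17 contrasts. P-values were Benjamini-Hochberg adjusted over 16260 entries, and SE is the log2 fold change over the root of F. Samples were grouped by their labels. The labels do not describe the letters A to C, and the main fit did not pair samples by them. Over 77 same-letter pairs, correlations of deviations ran from -0.228 to 0.237. They cannot show whether samples of a letter shared an animal or handling. The design note's biological replicates may share handling, so p-values measure the spread between these samples.

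Alternatives were DESeq2 1.42.0, its size factors in edgeR, limma 3.58.1 voom, no filter, the groups compared alone, a replicate block and leaving out each library. Library totals alone, a length slope term and leaving out 3 libraries were chosen after seeing the data. Up to 8 called members per comparison were named by smallest adjusted p, with a mean of at least 10 CPM, up to 10 per interaction, and up to 4 genes per pathway list. Per-library values were given for 18 genes chosen to stand for the roles and where the account turned on others. The members and lists were chosen with earlier results of these data known. Counting precision is limited by depth, 3 counts being the floor used for a group at 0.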

Additional observations from a re-analysis of the deposited data

Results flagged for a closer look

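The change from controls differed between macrophages and monocytes, by the interaction term of edgeR's fit, for 10 combinations of gene and day. On day 14 Oasl1 differed by -3.76 ± 0.83 (SE; macrophage change -0.19, monocyte change 3.57, adjusted p = 0.0082) and Bst2 by -2.71 ± 0.63 (-0.28 and 2.43, adjusted p = 0.011). Ifi207 differed by -1.66 ± 0.43 (-0.72 and 0.94, adjusted p = 0.023) and Rtp4 by -2.57 ± 0.67 (-0.56 and 2.01, adjusted p = 0.023). Parp14 differed by -2.02 ± 0.54 (-1.21 and 0.81, adjusted p = 0.027) and Isg15 by -3.28 ± 0.92 (1.07 and 4.35, adjusted p = 0.033). On day 28 Oasl1 differed by -3.72 ± 0.83 (-1.75 and 1.96, adjusted p = 0.0085), Bst2 by -2.38 ± 0.63 (-1.22 and 1.16, adjusted p = 0.026) and Oas2 by -2.69 ± 0.76 (-4.21 and -1.52, adjusted p = 0.038). On day 2 Gbp7 differed by -2.13 ± 0.57 (-1.66 and 0.47, adjusted p = 0.038). Of these, Oasl1 on day 14 and on day 28 was called in all 11 fits that left out 1 library and in the 9 other settings, with a highest adjusted p of 0.046 and 0.036. Each of the other 8 was lost in at least 2 of the 11 fits, and Gbp7 in 9.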

How the results depend on the processing

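None of the 71 named results changed direction in any setting, and 19 were called in every fit that left out 1 library. The numbers called (both directions) in comparisons with controls are given in the order macrophages on days 2, 14 and 28 and monocytes on days 2, 14 and 28, and those reported were 12, 4, 8, 5, 23 and 7. Leaving out each library gave 1 to 11, 1 to 4, 1 to 18, 1 to 5, 14 to 25 and 2 to 8. Without the low count filter 25, 8, 24, 17, 27 and 14 were called, with DESeq2 17, 5, 16, 10, 27 and 9, with limma voom 20, 4, 23, 18, 28 and 10, and with only the groups compared 22, 2, 4, 19, 25 and 9. Library totals alone gave 22, 7, 20, 8, 16 and 6, and the length term 2, 1, 14, 0, 6 and 1. Between days, macrophages on day 14 against 2 (reported 0) gave 10 without the filter, 1 with limma voom and 0 to 1 over left-out libraries. On day 28 against 2 (reported 1) macrophages gave 5, 8, 2 with only these groups, 0 with the length term and 0 to 4. Monocytes on day 14 against 2 (reported 3) gave 22 without the filter, 16 with DESeq2, 15 with limma voom, 1 with totals alone and 0 to 11, and on day 28 against 2 (reported 0) 9 without the filter and 0 to 0 over left-out libraries. Macrophages against monocytes in controls and on days 2, 14 and 28 gave 3, 1, 21 and 5, and over left-out libraries 0 to 1, 0 to 1, 4 to 22 and 0 to 24. Without the filter these were 7, 7, 30 and 30, with DESeq2 4, 2, 28 and 21, with limma voom 4, 13, 26 and 19, and with only the groups compared 5, 5, 12 and 0. Totals alone gave 13 on day 14, the length term 2 on day 28, and leaving out the 3 libraries that stood apart 0 in controls and 10 on day 14. The interactions on days 2, 14 and 28 gave 1, 6 and 3, over left-out libraries 0 to 1, 1 to 12 and 1 to 10, without the filter 6, 21 and 15, with DESeq2 4, 17 and 8 and with limma voom 3, 14 and 9. Totals alone gave 0 and 3 on days 2 and 14, leaving out the 3 libraries 2 and 3, and only the groups compared 3 on day 2. DESeq2 size factors in edgeR moved no count by more than 1.5 times. The cause of these shifts was not tested. With the replicate block, 2 members were called in macrophages on day 14, 2 in macrophages against monocytes on day 28 and 0 in the day 2 interaction, and 57 of the 71 named results were still called. Since the labels do not describe the letters, what a call lost under the block means cannot be told. Groups of 2 or 3 libraries, with macrophage controls that differ in length slope, limit every comparison with controls.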
